A study of Mus musculus with 5 samples.

Results

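The levels of 10 genes of neutrophil granules and calprotectin were read from 5 expression arrays of 32D cells, a mouse line of early myeloid cells whose growth ordinarily requires interleukin-3. The genes are S100a8, S100a9, Ngp, Ms4a3, Mpo, Ctsg, Elane, Prtn3, Lcn2 and Camp, which are 10 of the 18193 genes that the Affymetrix Mouse430_2 annotation names on the arrays. Each of them had 1 probe set with a single gene symbol. The genes were chosen with the array values known, because several read lower on the ITD78 or ITD611 array than on ITD598, so their levels are given as a description. The cells had been stably transduced with a retrovirus carrying 1 of 5 FLT3-ITD constructs, which the labels name ITD613, ITD78, ITD602, ITD611 and ITD598 without saying what the numbers mean. The kinase receptor FLT3 controls growth of early blood cells. ITD stands for internal tandem duplication, a repeat of part of the receptor that leaves it active in the absence of its ligand. Cells of every group were starved for 3 h and then treated with a tyrosine kinase inhibitor, not named in the labels, for 1 h. Each construct was measured on 1 array, no array of cells without a construct was analysed here, and the labels do not say whether a transduced line was a clone or a pool. There was therefore no spread between replicates and no test, and a difference of at least 1 on the log2 scale (2-fold) was used as a fixed rule of size.

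Neutrophils store antimicrobial proteins in granules that are filled in sequence while the cell matures. Azurophil granules are formed first, in promyelocytes, and hold myeloperoxidase (Mpo) and the serine proteases cathepsin G (Ctsg), neutrophil elastase (Elane) and proteinase 3 (Prtn3). Specific granules follow in myelocytes, with lipocalin 2 (Lcn2), the cathelicidin precursor (Camp) and neutrophilic granule protein (Ngp), while S100a8 and S100a9, the subunits of the calcium-binding cytosolic complex calprotectin, become abundant towards the mature cell. Ms4a3 encodes a membrane protein typical of granulocyte and monocyte progenitors. 32D cells can be driven towards granulocytes by G-CSF when its receptor is present, and transcription factors of the C/EBP, ETS (PU.1), MYB and RUNX families are known to act on promoters of these genes.

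The promoters of 6 of the genes are shown, because these genes differed in the order of the arrays: S100a8, S100a9, Ngp and Mpo read lowest on ITD78, Ctsg and Prtn3 lowest on ITD613. Each sequence is the 250 bases before the RefSeq start of the gene (build GRCm38.p6), 5′ to 3′ on the strand of the gene. All 10 genes had a RefSeq window. Capitals mark matches, on either strand, to the letters TTGCNNAA (C/EBP), GAGGAA (PU.1 and other ETS factors), AACNGNC (MYB), TGTGGT (RUNX), AGATAA (the site of GATA factors) or, for the box upstream of many starts, TATAAA.
S100a8 (chr3:90668821-90669070, + strand): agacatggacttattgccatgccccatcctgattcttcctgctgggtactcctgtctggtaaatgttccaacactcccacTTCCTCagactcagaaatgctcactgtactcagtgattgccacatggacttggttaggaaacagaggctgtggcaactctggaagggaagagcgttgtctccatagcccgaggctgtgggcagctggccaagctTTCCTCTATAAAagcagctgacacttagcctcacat
S100a9 (chr3:90695722-90695971, - strand): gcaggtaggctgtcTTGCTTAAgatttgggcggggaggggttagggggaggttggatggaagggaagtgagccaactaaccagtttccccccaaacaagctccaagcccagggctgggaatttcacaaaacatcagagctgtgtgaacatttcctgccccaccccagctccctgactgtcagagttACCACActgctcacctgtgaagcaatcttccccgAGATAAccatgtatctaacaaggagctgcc
Ngp (chr9:110419558-110419807, + strand): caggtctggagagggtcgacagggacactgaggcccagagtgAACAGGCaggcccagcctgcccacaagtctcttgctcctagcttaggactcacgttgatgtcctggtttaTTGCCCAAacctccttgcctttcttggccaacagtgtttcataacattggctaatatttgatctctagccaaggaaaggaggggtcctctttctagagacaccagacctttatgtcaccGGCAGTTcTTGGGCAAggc
Mpo (chr11:87793534-87793783, + strand): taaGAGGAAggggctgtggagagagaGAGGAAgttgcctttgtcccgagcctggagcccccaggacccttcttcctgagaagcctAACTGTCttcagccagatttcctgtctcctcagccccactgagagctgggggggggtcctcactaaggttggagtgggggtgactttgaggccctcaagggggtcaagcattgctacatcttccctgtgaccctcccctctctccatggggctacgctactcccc
Ctsg (chr14:56102575-56102824, - strand): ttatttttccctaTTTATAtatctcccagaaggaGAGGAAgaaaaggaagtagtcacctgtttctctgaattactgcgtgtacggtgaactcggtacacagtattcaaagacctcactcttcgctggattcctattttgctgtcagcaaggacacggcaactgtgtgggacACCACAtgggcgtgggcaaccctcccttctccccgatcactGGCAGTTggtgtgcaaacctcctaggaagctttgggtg
Prtn3 (chr10:79879417-79879666, + strand): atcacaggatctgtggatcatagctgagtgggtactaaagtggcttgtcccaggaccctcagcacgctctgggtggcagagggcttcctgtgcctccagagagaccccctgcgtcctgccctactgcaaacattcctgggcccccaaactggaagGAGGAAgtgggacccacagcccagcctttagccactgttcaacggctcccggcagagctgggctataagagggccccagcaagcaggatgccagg

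In these windows, taken to 50 bases beyond the start, the ETS letters were found in 7 of the 10 genes (S100a8, Ms4a3, Mpo, Ctsg, Elane, Prtn3 and Lcn2), against 28.3% of the 32851 windows of the same length in the RefSeq table. The C/EBP letters were found in S100a9, Ngp, Ms4a3 and Lcn2, against 10.8% of all windows, and the MYB letters in Ngp, Mpo, Ctsg and Elane, against 32.8%. The TATA letters lay at -30 in S100a8, directly after an ETS match at -36, and also matched in S100a9, at the start itself and so beyond the printed bases, and in Ctsg (13.6% of all windows). The RUNX letters matched in S100a9 and Ctsg (16.8%) and the GATA letters in S100a9 (11.2%). Of the 4 printed genes with the lowest value on ITD78, S100a9 and Ngp held C/EBP letters and S100a8 and Mpo did not. The 2 genes with the lowest value on ITD613 both held ETS letters, as S100a8 and Mpo did. None of the matched motifs overlapped another in the printed sequences. A match is a description of letters and not of a bound site.

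The 5 arrays had nearly equal medians, from 1.99 to 2.06 (log2), and no column was without a sample. A gene passed the low-value filter where its highest value reached 2.75, the 60th percentile of all values, which 9621 genes did. Values up to 3.74 were shared by at least 100 probe sets of an array, so differences that reach below 3.74 say little about size. The ITD602 array differs from the other 4 in a date-like string of its title, and its 3 spiked-in bioB control probe sets averaged 5.96, against 2.23 to 2.82 on the others. For ITD602, run and construct cannot be told apart. Of 9 markers listed for a myeloid progenitor, 7 passed the filter, among them Ptprc (CD45) and Myb, and Kit and Cd34 read at most 0.92 and 0.67 on every array.

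S100a8 and S100a9 had almost the same profile and the widest ranges of the 10 genes. S100a8 read 5.93 on ITD613, 2.49 on ITD78, 6.65 on ITD602, 3.98 on ITD611 and 7.61 on ITD598. S100a9 read 5.67 on ITD613, 2.11 on ITD78, 6.12 on ITD602, 3.77 on ITD611 and 7.39 on ITD598. Both genes were thus high on ITD598 and ITD602, intermediate on ITD613, low on ITD611 and lowest on ITD78. The ranges were 5.12 and 5.28 (log2) as deposited. With values below 3.74 raised to that level they were 3.87 and 3.65, which ranked 6th and 8th among the 9621 genes. The step between the ITD613 and the ITD611 array was 1.95 for S100a8 and 1.90 for S100a9, past 2-fold in both. Its size is uncertain, since the S100a8 value on ITD611 was shared by 95 probe sets and that of S100a9 lay just above 3.74. The ITD602 and ITD613 arrays differed by less than 2-fold in both genes (0.72 and 0.45). ITD602 lay 0.96 below ITD598 for S100a8 and 1.27 below it for S100a9, on either side of the 2-fold rule. Whether ITD78 was lower than ITD611 cannot be sized, because with values below 3.74 raised to that level the values were 3.74 on ITD78 and 3.98 on ITD611 for S100a8, and 3.74 and 3.77 for S100a9. The S100a8 probe set is of the _s_at kind, which can bind transcripts of more than 1 gene. S100a8 and S100a9 are next to each other on chromosome 3.

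Ngp, a cystatin-like protein of specific granules, separated the arrays into a high and a low group. It read 6.16 on ITD613, 3.99 on ITD78, 5.90 on ITD602, 3.99 on ITD611 and 6.69 on ITD598. The 3 high arrays lay within 0.79 (log2) of one another, the ITD78 and ITD611 arrays differed by 0.0024, and the step between the groups was 1.91. The ITD78 value was shared by 65 probe sets of that array, so ITD78 and ITD611 were not ordered and the size of the step is uncertain. Of the 7 genes that ranged over 2-fold, Ngp was the one in which ITD613 stood closest to ITD598, 0.53 below it. The other 2 specific granule genes gave no signal that could be ordered. Lcn2, which encodes a siderophore-binding protein, read 0.74 on ITD613, 0.71 on ITD78, 1.15 on ITD602, 0.76 on ITD611 and 1.02 on ITD598, below the filter everywhere. Camp, the cathelicidin gene, read 2.75 on 4 arrays and 2.71 on ITD611. It passed the filter by equality with the filter value, which 223 probe sets of the ITD598 array shared.

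Ms4a3 followed the order of the calprotectin genes with smaller steps. It read 4.18 on ITD613, 2.63 on ITD78, 5.05 on ITD602, 4.01 on ITD611 and 5.74 on ITD598. Neighbours among the 4 upper arrays lay within 0.86 (log2) of each other, and ITD613 and ITD611 differed by 0.17, so those 2 were not separated. The ITD613 value was shared by 63 probe sets of that array. ITD78 was 1.38 below ITD611, or 0.27 below it with low values raised to 3.74.

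Mpo, the peroxidase of azurophil granules, had the same order of arrays as S100a8 and not that of the granule proteases. It read 5.18 on ITD613, 4.52 on ITD78, 6.21 on ITD602, 5.00 on ITD611 and 6.55 on ITD598. ITD598 and ITD602 were 0.34 apart, and ITD602 was 1.03 above the next array, ITD613. The lower 3 arrays spanned 0.66, so ITD613, ITD611 and ITD78 were not separated by 2-fold. Their Mpo values were shared by 34 (ITD613), 42 (ITD611) and 55 (ITD78) probe sets of the array. The sizes of Mpo differences that involve these arrays are therefore uncertain. The whole range of Mpo was 2.02, against 5.12 for S100a8.

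The granule serine proteases Ctsg and Prtn3 were highest on ITD602, ITD598 and ITD611 and lowest on ITD613. Ctsg read 6.24 on ITD613, 7.42 on ITD78, 9.17 on ITD602, 8.77 on ITD611 and 9.09 on ITD598. The upper 3 arrays lay within 0.40 (log2) of each other, ITD78 was 1.34 below ITD611, and ITD613 another 1.19 below ITD78. Prtn3 read 5.55 on ITD613, 5.83 on ITD78, 7.45 on ITD602, 6.81 on ITD611 and 7.20 on ITD598. Its upper 3 arrays lay within 0.64, ITD78 was 0.97 below ITD611, just short of 2-fold, and ITD613 and ITD78 were 0.29 apart. Elane, the next coding gene to Prtn3 on chromosome 10, read 2.45 on ITD613, 2.67 on ITD78, 2.36 on ITD602, 2.73 on ITD611 and 2.36 on ITD598. All of its values were below the filter, and the ITD602 value was shared by 339 probe sets of that array, so the Elane probe set gave no order.

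**Figure D1:**
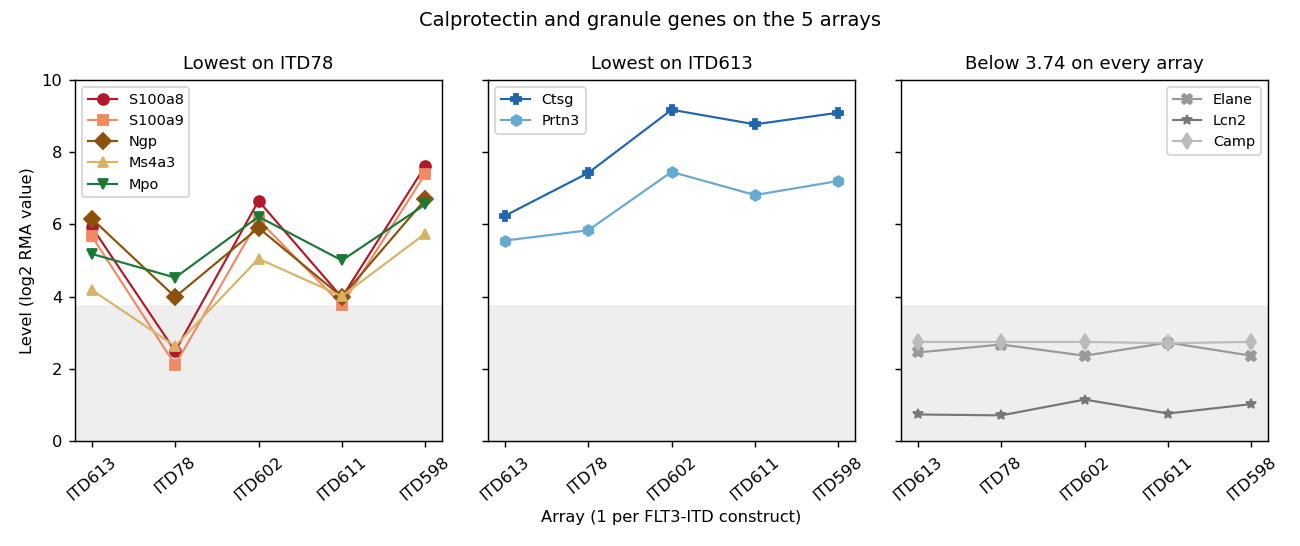
Level (log2 RMA value, vertical axis) of the 10 genes on the 5 arrays (horizontal axis, 1 array per construct), in panels by the array with the lowest value. Lines join the values of a gene, and the grey band marks values below 3.74. S100a8 runs from 2.49 on ITD78 to 7.61 on ITD598, Ctsg from 6.24 on ITD613 to 9.17 on ITD602, and Elane, Lcn2 and Camp stay in the band.

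The question of which order the early and late granule genes follow therefore had no answer by stage alone. S100a8, S100a9, Ms4a3 and Mpo ran, from high to low, ITD598, ITD602, ITD613, ITD611, ITD78. Ngp differed from this in having ITD613 above ITD602, by 0.25 (log2). Ctsg and Prtn3 ran ITD602, ITD598, ITD611, ITD78, ITD613. The early genes Mpo and Ctsg thus had different orders, and Mpo shared its order with the late gene S100a8. In Mpo only the step from ITD602 to ITD613 (1.03) passed 2-fold, with an ITD613 value shared by 34 probe sets. Its other steps were 0.34, 0.18 and 0.48, so most of the shared order rests on small differences. In S100a8 the place of ITD78 below ITD611 rests on a value below 3.74. Among the 999 genes that ranged over at least 2-fold, the order of Ctsg was held by 102 genes (10.2%). With ties counted as no order, the order of S100a8 was held by 6 genes, which were the 4 named here, the basophil protease gene Mcpt8 and Mycn, and the order of Ngp by Ngp alone. These counts take steps of any size, and in Ngp the ITD611 and ITD78 arrays differed by 0.0024. The Euclidean distance between the profiles, each centred on its own mean over the 5 arrays, was 0.27 for S100a8 and S100a9, 0.85 for Ms4a3 and Mpo and 1.03 for Ctsg and Prtn3. It was 1.99 for Mpo and Ctsg, 2.63 for Mpo and S100a8, 4.07 for Ctsg and S100a8, and 1.14 for Mpo and Prtn3. By distance, which also takes in the size of the steps, Mpo was therefore closer to Prtn3 than to S100a8. The distances were taken on values as deposited, and those of S100a8, S100a9 and Ms4a3 include ITD78 values below 3.74.

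Of the 10 genes, 8 passed the filter, and 7 of these ranged over at least 2-fold, all but Camp, beside 10.4% of all genes that passed. The genes were chosen from these values, so nothing is read from that count. Set against the ITD598 array, where 5 of the 7 were highest, the other 4 arrays gave values that were at or below it for most of the genes. These 4 comparisons share the ITD598 array and are given side by side.

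On ITD78 against ITD598, 7 of the 8 genes were at least 2-fold lower, where 0.935% of all genes were, and none was 2-fold higher (0.561% of all genes). S100a8 was lower by 5.12 and S100a9 by 5.28 on the log2 scale, or -3.87 and -3.65 with values below 3.74 raised to that level. On either scale these were the largest differences in that direction among the 9621 genes. Ms4a3 differed by -3.11 (-2.0 with raised values), Ngp by -2.70, Mpo by -2.02, Ctsg by -1.67 and Prtn3 by -1.36. The median over the 8 genes was -2.36, against -0.0050 over all genes.

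On ITD611 against ITD598 the calprotectin genes differed most of all genes, while the proteases were within 2-fold. These arrays were the most alike of the pairs compared with ITD598, with an SD of 0.18 (log2) over the differences of all genes. Of the 8 genes, 5 were at least 2-fold lower on ITD611, where 0.104% of all genes were, and none was higher (0.0208%). S100a8 read 3.98 on ITD611 against 7.61 on ITD598, a 12.4-fold difference, and S100a9 3.77 against 7.39. The S100a8 value on ITD611 was shared by 95 probe sets of that array, and the S100a9 value lay just above 3.74. The sizes of both differences are therefore uncertain. Ngp differed by -2.70, Ms4a3 by -1.73 and Mpo by -1.55, and Ctsg and Prtn3 by -0.32 and -0.39. In all, 10 genes were at least 2-fold lower on ITD611 than on ITD598. Besides these 5 they were the stefin A genes Stfa2l1 (-2.29) and Stfa3 (-1.96), which encode inhibitors of cysteine proteases, Prg2, the eosinophil major basic protein gene (-1.46), Gem (-1.22) and Mex3b (-1.01), named after their values were seen. All of these last 5 read below 3.74 on both arrays. The 2 higher genes were Greb1 (1.12) and Cldnd1 (1.22).

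On ITD602 against ITD598, S100a9 was the gene past 2-fold, at 6.12 against 7.39, where 0.218% of all genes were lower and 0.0416% higher. S100a8 (-0.96), Ngp (-0.79) and Ms4a3 (-0.69) fell short of 2-fold but lay past 1.5-fold, Mpo differed by -0.34, and Ctsg (0.08) and Prtn3 (0.25) were slightly higher on ITD602. The median over the 8 genes was -0.52, against 0.03 over all genes.

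On ITD613 against ITD598, 6 of the 8 genes were at least 2-fold lower, where 2.85% of all genes were, and none was higher (3.45%). Ctsg showed the largest difference (-2.85, or 7.22-fold lower), followed by S100a9 (-1.72), S100a8 (-1.68), Prtn3 (-1.65), Ms4a3 (-1.56) and Mpo (-1.37). Ngp, at 6.16 on ITD613 against 6.69 on ITD598, stayed within 2-fold. More genes differed between these 2 arrays in general, with an SD over all genes of 0.55 (log2), against 0.33 for ITD78 and ITD598.

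Set against ITD78, the ITD613 array had higher calprotectin genes and lower Ctsg. On ITD613 against ITD78, 4 genes were at least 2-fold higher, where 1.7% of all genes were: S100a9 by 3.56, S100a8 by 3.44, Ngp by 2.17 and Ms4a3 by 1.55 on the log2 scale. With values below 3.74 raised to that level the S100a9 and S100a8 differences were 1.93 and 2.19, and that of Ms4a3 was 0.44. Ctsg was lower on ITD613 (6.24 against 7.42), where 1.26% of all genes were at least 2-fold lower, and Prtn3 (-0.29) and Mpo (0.66) were within 2-fold.

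The orders of S100a8 and Ctsg differ in the place of ITD613 relative to ITD611, and this comparison was added after the values were seen. On ITD613 against ITD611, S100a8 (1.95), S100a9 (1.90) and Ngp (2.16) were at least 2-fold higher, where 4.06% of all genes were. Ctsg (-2.53) and Prtn3 (-1.26) were at least 2-fold lower, where 2.83% of all genes were. Ms4a3 (0.17) and Mpo (0.18) were close to 0. The calprotectin genes and Ngp were thus higher and the proteases lower on the same array, and Ms4a3 and Mpo were neither.

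**Figure D2:**
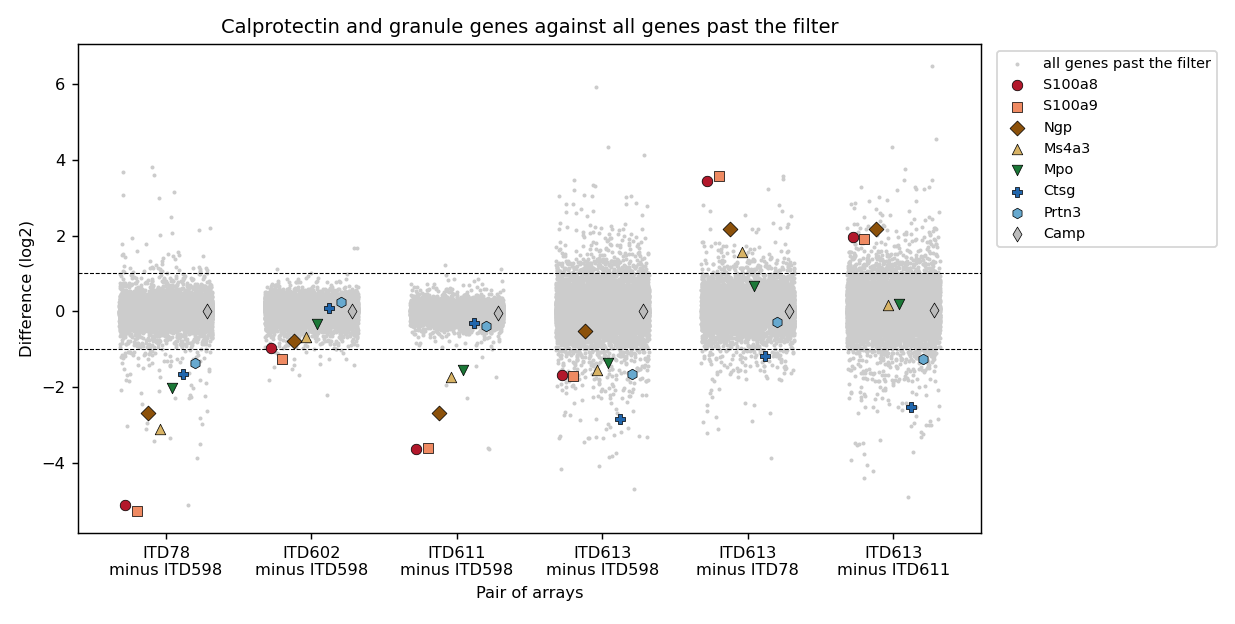
Difference between arrays (log2, vertical axis) for 6 pairs of arrays (horizontal axis), with the 8 genes that passed the filter as coloured symbols and all 9621 genes as grey points, spread sideways for legibility. Dashed lines mark 2-fold. S100a8 and S100a9 lie at -3.64 and -3.62 for ITD611 minus ITD598 while Ctsg and Prtn3 lie at -0.32 and -0.39, and the 2 kinds of gene lie on opposite sides of 0 for ITD613 minus ITD611.

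Other neutrophil genes were then read from 3 lists, chosen with earlier results of these arrays known: azurophil granule and associated genes, specific and gelatinase granule genes, and late neutrophil genes. Of their 57 genes, 24 passed the filter and 14 of these ranged over at least 2-fold, beside 10.4% of all genes that passed. ITD613 was the lowest array for 13 of the 14, beside 41.3% of all genes ranging that far, and ITD78 for 1 (Stfa2l1), beside 7.81%. These counts take values as deposited, and the 13 include Stfa3, which read 1.09 on ITD613, 1.16 on ITD611 and 1.22 on ITD78. Of the 7 calprotectin and granule genes that ranged, 2 were lowest on ITD613 and 5 on ITD78. These 7 belong to a set chosen because several read low on ITD78 or ITD611, so nothing is read from that split. Several of the lowest values in the lists and the set lay below 3.74. With such values raised to 3.74, 9 of the 14 still ranged over 2-fold, and 7 of the 9 were lowest on ITD613 (Serpinb1a, Cst7, Gusb, Ctsc, Anxa1, Clec4e and Padi4, of which Ctsc and Padi4 are named after their values were seen), beside 40.4% of all genes that did. None was lowest on ITD78, beside 5.26%, and Slpi and Trem1 read the same on ITD613 and ITD78. Of the 7, Clec4e was set apart only by 3.74 on ITD613 against 3.77 on ITD78. The split of the calprotectin and granule genes stayed at 2 and 5 with raised values, but in Ngp the ITD78 and ITD611 arrays were 0.0024 apart and in S100a9 they were 3.74 and 3.77.

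Of the azurophil list, 10 of 14 genes had a value, all 10 passed and 5 ranged over 2-fold. Serpinb1a, an inhibitor of elastase, cathepsin G and proteinase 3, had the widest range, at 5.99 on ITD613, 7.59 on ITD78, 10.01 on ITD602, 9.92 on ITD611 and 9.85 on ITD598. Like Ctsg, it was high on 3 arrays and lowest on ITD613. Nkg7, better known from granules of cytotoxic lymphocytes, read 2.02 on ITD613 and 4.35 on ITD602, its highest array. With values below 3.74 raised to that level its range was 0.61, short of 2-fold. Cst7 (cystatin F) read 4.55 on ITD613 and 6.33 on ITD602, and the lysosomal glucuronidase gene Gusb read 6.86 and 7.93 on the same arrays. The lysozyme gene Lyz2 and the granule proteoglycan gene Srgn, named after their values were seen, stayed within 4.74 to 5.02 and 10.78 to 11.10. On ITD613 against ITD598, 3 of the 10 were at least 2-fold lower (median -0.53), beside 2.85% of all genes, and the 3 include Nkg7. On ITD611 against ITD598 none was (median 0.04), beside 0.104%.

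Of the specific and gelatinase granule list, 18 of 19 genes had a value and 5 passed the filter. Lactoferrin (Ltf), gelatinase B (Mmp9) and Itgam, named after their values were seen, read below the filter on every array, as Lcn2 did. Slpi, a leukocyte protease inhibitor, read 3.13 on ITD613, 3.73 on ITD78, 5.15 on ITD602, 4.40 on ITD611 and 4.91 on ITD598. Cd177, a neutrophil surface protein, was lowest on ITD613 too (1.44, against 3.36 on ITD598), with all its values below 3.74.

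Of the late neutrophil list, 18 of 24 genes had a value, 9 passed and 7 ranged over 2-fold. Stfa2l1 came closest to the calprotectin genes, at 1.22 on ITD613, 0.68 on ITD78, 2.59 on ITD602, 1.22 on ITD611 and 3.51 on ITD598, although every value lay in the low range. The lowest array of Stfa3 was not determined, since it read 1.09 on ITD613, 1.22 on ITD78, 1.69 on ITD602 and 1.16 on ITD611, against 3.12 on ITD598. Clec4e, a C-type lectin receptor, read 3.68 on ITD613 and 3.77 on ITD78, against 5.40 to 5.85 on the other arrays. Anxa1 (annexin A1) read 6.01 on ITD613 and 6.94 on ITD78, against 7.85 to 8.13 on the others, and Trem1 3.14 and 3.51, against 4.36 to 5.20. For Clec4e and Trem1 the order of ITD613 and ITD78 rests on values near or below 3.74. The chemokine receptor gene Cxcr2 and the G-CSF receptor gene Csf3r, named after their values were seen, read at most 1.06 and 1.61 on any array. On ITD78 against ITD598, 4 of the 9 were at least 2-fold lower (median -0.93), beside 0.935% of all genes. On ITD613 against ITD598, 6 were (median -1.30), beside 2.85%. Both counts include Stfa2l1 and Stfa3, which read below 3.74 on every array. The 6 also include Trem1, at 3.14 on ITD613.

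**Figure D3:**
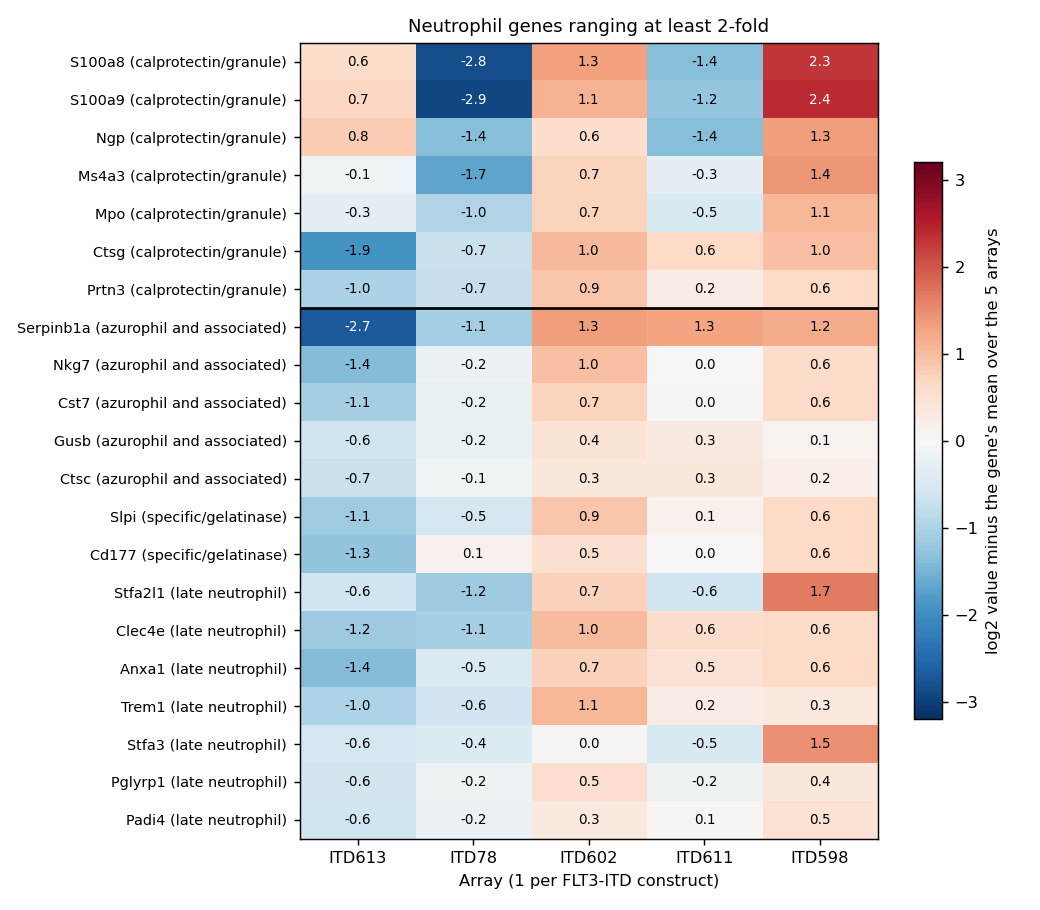
Values of the 7 calprotectin and granule genes that ranged over 2-fold (above the line) and of the 14 genes of the 3 neutrophil lists that did so (below), as log2 value minus the mean of the gene over the 5 arrays (colour and printed number). Columns are the arrays. As deposited, the ITD613 column is the lowest for 13 of the 14 genes below the line and for Ctsg and Prtn3 above it. S100a8, S100a9, Ngp, Ms4a3 and Mpo are lowest in the ITD78 column. The genes above the line were chosen with these values known, and the lowest array of Stfa3 was not determined.

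Of 17 listed regulators of granulocyte formation, 16 had a value, 10 passed and 6 ranged over 2-fold, none of these 6 in the order of S100a8. Gata1, a factor of the erythroid, megakaryocyte, mast cell and eosinophil lineages, ran the other way from Ctsg, at 8.14 on ITD613 and 7.01 on ITD78, against 5.84 to 6.29 on the others. Id2, a repressor of helix-loop-helix factors, read 5.01 on ITD613 against 6.58 to 7.09 on the other arrays. Runx1 and Gata2 were lowest on ITD613 (4.03 and 7.22) and highest on ITD602 (5.45 and 8.34), with the order of Ctsg in both. Ikzf1 (Ikaros), named after its values were seen, was lowest on ITD78 (5.07) but highest on ITD613 (6.18). Cebpb and Cebpd, named in the same way, stayed within 7.59 to 7.88 and 4.87 to 5.27, and Cebpa, which drives entry into the granulocyte lineage, read below the filter on all arrays.

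The genes with profiles most like 4 of the genes were named by the smallest Euclidean distance between centred profiles over the 5 arrays. S100a8 had 1 gene within a distance of 1, S100a9. Its next nearest were Ngp (1.93), Ms4a3 (2.01), Mcpt8 (2.32) and Stfa2l1 (2.35). Ngp had no gene within 1, and its nearest were Ms4a3 (1.46), Mpo (1.5), Prg2 (1.54), Stfa2l1 (1.66) and Rgs10, a regulator of G-protein signalling (1.72). Mpo had 9 genes within 1, the nearest being Pilrb1 (0.73), Stfa2l1 (0.73), Ms4a3 (0.85), the annexin gene Anxa3 (0.95) and Capg, an actin-capping protein gene (0.96). Ctsg had 55 genes within 1. The nearest were Tiam1, an exchange factor for Rac (0.45), Clec5a, a myeloid lectin receptor (0.45), the hexokinase gene Hk3 (0.46), Gzmb (granzyme B, 0.48) and Mdfic (0.50). The Ctsg profile thus had many near neighbours on these arrays and the S100a8 profile few, on a measure that also grows with the range of a gene. Distances were taken on values as deposited, so the part of them that comes from readings below 3.74 says little. Stfa2l1 and Clec5a read below 3.74 on every array, and Prg2 and Rgs10 on all but ITD613. Tiam1 did so on ITD613 and ITD78, Mdfic on ITD613, and Ms4a3 and Mcpt8 on ITD78. S100a8 and S100a9 did so on ITD78, and the highest value of Pilrb1 was 3.76.

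**Figure D4:**
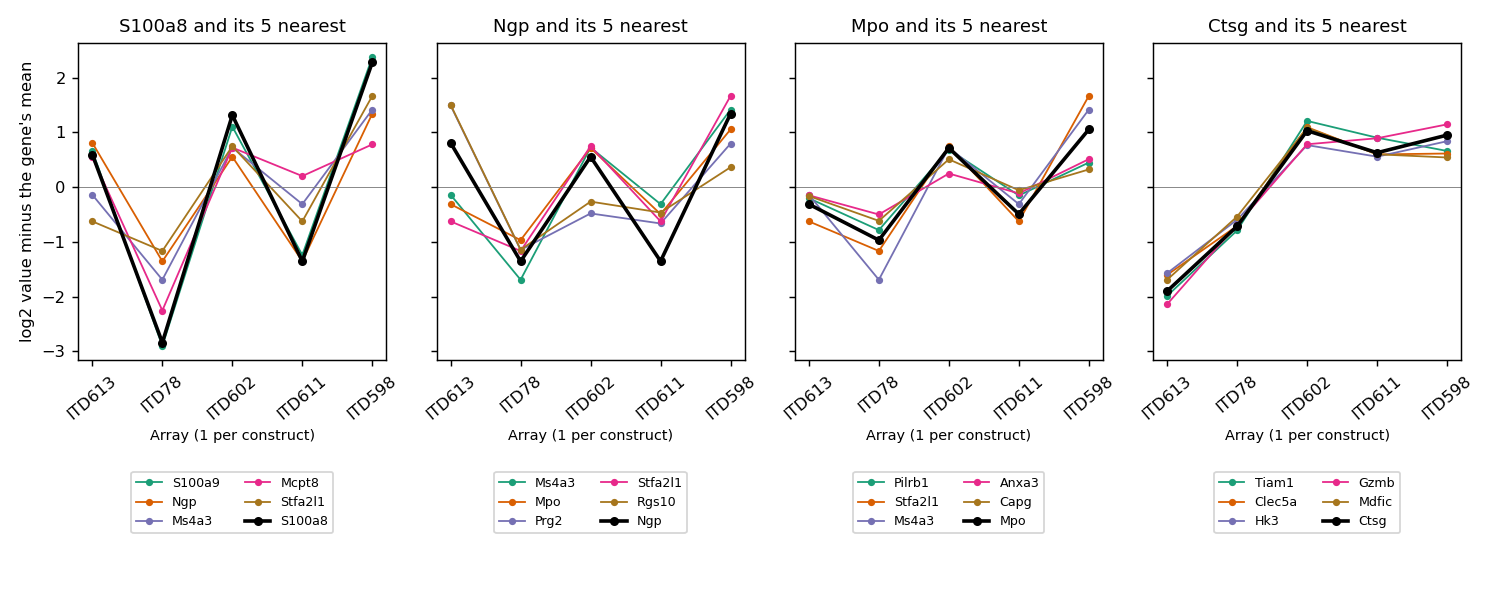
Profiles of S100a8, Ngp, Mpo and Ctsg (black) with the 5 genes nearest to each (colours), as log2 value minus the mean of the gene (vertical axis) on the 5 arrays (horizontal axis). S100a9 lies on S100a8 at a distance of 0.27, whereas the next gene lies 1.93 away. Distances are on values as deposited, with S100a8 and S100a9 below 3.74 on ITD78. All 5 genes nearest to Ctsg lie within 0.50 of it, though Tiam1, Clec5a and Mdfic read below 3.74 on ITD613.

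Markers of other lineages also differed between the arrays. The summed linear level (2 to the power of the log2 value) of the 9 measured monocyte and macrophage markers was 34.4 on ITD613, 47.3 on ITD78, 235 on ITD602, 193 on ITD611 and 161 on ITD598. The 3 that passed the filter, Adgre1, Fcgr1 and Csf1r, read 2.68, 3.06 and 2.54 on ITD613 and 3.00, 3.87 and 3.16 on ITD78. These were their 2 lowest arrays, and the order of the 2 rests on values near or below 3.74. Cd14 and Cx3cr1 read below the filter on every array. The sum of 6 erythroid markers was 2087 on ITD613, 1182 on ITD78, 852 on ITD602, 899 on ITD611 and 901 on ITD598. Klf1 read 10.01 on ITD613 and 8.44 on ITD78, and Slc4a1 5.55 and 4.91, against at most 7.36 and 1.41 on the others. Tfrc and Epor ranged over only 0.47 and 0.16 (log2), and Alas2 and Hba-a1 read below the filter on every array. The sum does not stand for all globin genes. Hbb-y, outside the list and named after its values were seen, read 11.74 on ITD598 and 10.31 on ITD602. The sum of 6 eosinophil markers was 108 on ITD613, 49.2 on ITD78, 81.0 on ITD602, 64.4 on ITD611 and 88.4 on ITD598. The 3 that passed the filter differed. Prg2 read 4.17 on ITD613 and 3.47 on ITD598, the latter below 3.74, against at most 2.20 on the other 3. Epx read 5.18 on ITD613 and at most 2.14 on any other array. Siglecf, the highest of these markers on every array, ran from 5.18 on ITD78 to 6.05 on ITD602. The sum of 9 mast cell and basophil markers was lowest on ITD78 (40.5) and highest on ITD613 (109), but its members did not move together. Mcpt8 read 2.90 on ITD78 against 5.36 to 5.94 on the other arrays. Cpa3 read 4.56 on ITD613 and 3.66 on ITD78, against 2.48 to 2.72 on the others. Fcer1a read 3.96 on ITD613 and at most 0.72 elsewhere. The sums of 5 megakaryocyte markers ran from 369 on ITD611 to 653 on ITD78. Among these markers, Pf4 read 3.09 on ITD613 against 5.99 to 6.51 elsewhere, and Vwf 6.56 on ITD78 against 2.96 to 3.91. Itga2b, the highest of them on every array, ranged over 0.59 (log2). The sums of 4 B cell and 5 T cell markers ran from 13.8 to 17.4 and from 26.0 to 27.9, with no member ranging over 2-fold. The part of such cells in the differences of the calprotectin and granule genes was not tested. In total RNA of a culture, fewer cells of a type and less RNA per cell cannot be told apart.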

How the data were processed

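The deposited tables hold log2 intensities from RMA, per the submitters' processing notes, a method that corrects background, puts arrays on a common scale and summarises the probes of a probe set. Its software and chip definition are not given in the sources used here. Base 2 was inferred from the range of the values. There were 45101 probe sets on 5 arrays, of which 34945 had a single gene symbol and were no controls. The probe set with the highest mean stood for its gene, which gave 18193 genes, and a low-value filter at the 60th percentile of all values left 9621. Probe sets with several symbols (932) were left out. With 1 array per construct no test was made and precision is limited by the number of arrays.

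The script that counts differences past 2-fold was checked on simulated data, which says nothing about the spread between arrays. Genes named from a list are up to 4 with the widest range of at least 2-fold, besides the 10 genes themselves and the 5 genes nearest in profile to S100a8, Ngp, Mpo and Ctsg. The 10 genes and all lists were chosen with earlier results of these data known. Promoter sequences are from RefSeq (GRCm38.p6). Alternatives were the probe set rule, the filter, raised low values, a smaller fold and leaving out each array. Computation used Python 3.11.15 with numpy 2.4.6 and pandas 2.3.3.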

Additional observations from a re-analysis of the deposited data

How the results depend on the processing

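The count of genes ranging over 2-fold was 7 as reported and stayed at 7 leaving out each array in turn, and it was 6 when probe sets of the _x_at and _s_at kinds were left out, which removes S100a8. Of 29 differences past 2-fold in the 6 comparisons, none changed sign under any alternative, and 28 stayed past 2-fold with values below 3.74 raised to that level. The exception was Ms4a3 on ITD613 against ITD78, which was 0.44. With raised values, an alternative chosen after seeing the data for list genes, 9 in place of 14 neutrophil list genes ranged over 2-fold. With differences of at least 1.5-fold counted, 4 genes differed between ITD602 and ITD598 in place of 1. All other counts were within 1.5 times the reported ones. Each gene has 1 probe set, so taking the mean of probe sets changed nothing. No paired analysis was possible because each construct has 1 array. With no detection calls in the deposited values, Elane, Lcn2 and Camp have no known background level.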

Other observations

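Other members of the S100 family did not share the range of S100a8 and S100a9. Of 14 listed, 11 had a value, 7 passed the filter and 2 ranged over 2-fold. S100a10, a partner of annexin A2, read 9.27 on ITD613, 8.56 on ITD78, 8.18 on ITD602, 8.07 on ITD611 and 8.45 on ITD598, so that ITD613 was its highest array. S100a4 read 9.29 on ITD613, 8.70 on ITD78, 9.54 on ITD602, 9.42 on ITD611 and 9.79 on ITD598, lowest on ITD78 and highest on ITD598 as for S100a8, but over a range of 1.09 (log2). S100a6, named after its values were seen, had the full order of S100a8, from 8.74 on ITD598 to 7.89 on ITD78, over a range of 0.86. Of 6 genes listed as calprotectin receptors or partners, Tlr4 and Cd69 ranged over 2-fold, and both were lowest on ITD613, Tlr4 with all values below 3.74.

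Of 13 listed proteases of the gene cluster around Ctsg on chromosome 14, 12 had a value and 2 passed the filter. Mcpt8, the basophil protease gene next to Ctsg among coding genes, read 5.70 on ITD613, 2.90 on ITD78, 5.88 on ITD602, 5.36 on ITD611 and 5.94 on ITD598, the order of S100a8. Every array but ITD78 lay between 5.36 and 5.94, however, so Mcpt8 lacked the step of S100a8 between ITD613 and ITD611. Gzmb read 3.98 on ITD613, 5.44 on ITD78, 6.91 on ITD602, 7.02 on ITD611 and 7.27 on ITD598, lowest on ITD613 as Ctsg was but with ITD598 and not ITD602 as its highest array. Of 13 listed relatives of Ms4a3, 12 had a value and 1 passed the filter (Ms4a15, named after its values were seen), with no range over 2-fold.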
